A study of Rattus norvegicus with 10 samples.

Results

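Molecular chaperones are the proteins that help other proteins reach and keep their folded shape. Members of the HSP70 family bind unfolded chains with the help of J-proteins (DNAJ genes) and release them when nucleotide exchange factors act, HSP90 matures clients handed over by HSP70, the chaperonin TRiC encloses actin, tubulin and other chains fed to it by prefoldin, and the HSP60 and HSP10 pair folds proteins inside mitochondria. Many of these genes are induced together by heat shock factor 1, while others are transcribed at a steady level in unstressed cells, and the choroid plexus, a secretory epithelium rich in mitochondria, expresses both kinds.

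The set comprised 34 chaperone genes of the 32883 genes listed in the deposited files. They were taken by symbol from the study's gene tables (symbols starting with HSP, DNAJ, CCT, BAG or PFDN, plus TCP1 and STIP1, without the endoplasmic reticulum genes HSPA5 and HSP90B1 and the matrix gene HSPG2) and tied to the files by Ensembl identifier. The copy of the longer table used for the names held 1997 rows with a control mean of at least 45.06 TPM, so that chaperone genes with lower control levels were not analysed here and the set is limited to abundant transcripts. This limit lies on the control side alone: HSPBP1, with a mean of 46.9 TPM in control and 41.2 in HFD-fed rats as deposited, would not have met it by its HFD mean. The working description of these genes as cytosolic and mitochondrial does not hold for DNAJB11 and DNAJC3, whose products reside in the endoplasmic reticulum, or for DNAJC8, a nuclear protein.

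RNA came from the choroid plexus of 10 female Wistar rats aged 27 weeks, with 1 animal in each library. A high fat diet (HFD) was given to 5 rats, and the other 5 received a control diet matched for its nutrient sources. The labels name no other difference between the groups, and each library held tissue of the lateral ventricles and of the fourth ventricle. By the study's methods, experimental rats were chosen on body weight, control rats below a limit and HFD-fed rats above a higher limit. Diet and selection on weight therefore cannot be told apart here. For these genes the comparison asks whether the diet was accompanied by a different level of chaperone transcripts in the tissue that secretes cerebrospinal fluid.

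Levels were deposited as TPM, a relative transcript abundance that takes length into account and sums to the same total in each rat. The depth of each library is therefore unknown. To compare rats, the TPM were divided by the median ratio of each rat to the mean of all rats, and the results are called rescaled TPM. Control rat 1 stood apart, with a scaling factor of 0.749 against 0.945 to 1.13 in the other 9 rats and a mean effective transcript length of 789 against 874 to 968 bases, and results it touches are also given without it. All 9 epithelial markers examined were expressed and none was at 0. The most abundant, transthyretin (TTR), had 530361 rescaled TPM in control rat 1 and 287895 to 404602 in the other rats. Of the 9 markers, 1 had an unadjusted p under 0.05, the klotho gene KL, with 448 ± 17.3 against 375 ± 59.0 in control rats (SD, n = 5 each; limma, unadjusted p = 0.0314). Control rat 1 was the lowest rat for KL (272), and without it the log2 fold change went from 0.27 to 0.16 (limma, unadjusted p = 0.00642). For KL all HFD-fed rats (420 to 463) were above all control rats (272 to 414), as they also were with TPM as deposited. With control rat 1 left out, 2 of the 9 markers passed, the other being the water channel gene AQP1 with -0.18 (limma, unadjusted p = 0.0224). Of all genes tested, 5.53% were then higher and 6.25% lower with such a p. The summed markers of other cells that could be named overlapped between the diets. Blood (1 of 4 listed genes, HBB) had 818 to 1609 rescaled TPM in control and 699 to 1505 in HFD-fed rats, stroma (1 of 5, DCN) 116 to 231 and 160.5 to 227, endothelium (1 of 3, PLVAP) 53.8 to 97.2 and 51.1 to 67.2, mural cells (1 of 3, RGS5) 42.6 to 110.4 and 101 to 129, and macrophages (2 of 4) 432 to 626 and 458 to 653. Control rat 1 set an end of several of these control ranges. The other control rats had 140 to 231 for DCN, 53.8 to 62.4 for PLVAP, 106 to 110.4 for RGS5 and 498 to 626 for macrophages. These ranges also overlapped with those of HFD-fed rats. The part of these cells in the results was not tested. In bulk tissue, fewer cells of a type and less RNA per cell cannot be told apart.

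Heat shock factor 1 binds heat shock elements, inverted repeats of the letters GAA. The 250 bases before the annotated start were available for 30 of the 34 genes (RefSeq, build GRCr8, which is not the build of the expression files). The search used GAANNTTC and TTCNNGAA, each of which reads the same on both strands, and a run of 3 units, in which GAANNTTC is followed by NNGAA or TTCNNGAA by NNTTC, so that it contains both short forms. Either of the short forms was found before 12 of the 30 genes and before 13.5% of all 33469 promoters in the table, and 3 units were found before 4 genes (13.3%) and 0.663% of all promoters. The 4 genes with 3 units were HSPD1, HSPE1, HSPA8 and HSPH1. The sequences below show the windows of HSPE1, HSPA8 and HSPH1, followed by HSPB1 with its separate short forms, since these genes return in the comparisons. Capitals mark the matches.
HSPE1: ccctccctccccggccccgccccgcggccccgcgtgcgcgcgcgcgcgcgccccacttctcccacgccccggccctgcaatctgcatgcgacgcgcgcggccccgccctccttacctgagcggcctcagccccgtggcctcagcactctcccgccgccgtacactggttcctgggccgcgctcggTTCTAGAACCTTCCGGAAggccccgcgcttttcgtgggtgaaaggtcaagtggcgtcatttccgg
HSPA8: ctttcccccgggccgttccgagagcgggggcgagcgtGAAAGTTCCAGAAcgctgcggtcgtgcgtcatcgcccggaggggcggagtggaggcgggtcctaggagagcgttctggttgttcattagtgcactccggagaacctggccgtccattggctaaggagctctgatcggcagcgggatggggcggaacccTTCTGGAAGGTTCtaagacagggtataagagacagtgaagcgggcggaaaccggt
HSPH1: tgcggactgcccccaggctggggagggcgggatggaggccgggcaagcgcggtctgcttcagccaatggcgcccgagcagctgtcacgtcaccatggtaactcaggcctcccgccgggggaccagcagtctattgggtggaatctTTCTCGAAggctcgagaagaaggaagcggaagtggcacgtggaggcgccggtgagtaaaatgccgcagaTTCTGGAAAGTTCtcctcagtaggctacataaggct
HSPB1: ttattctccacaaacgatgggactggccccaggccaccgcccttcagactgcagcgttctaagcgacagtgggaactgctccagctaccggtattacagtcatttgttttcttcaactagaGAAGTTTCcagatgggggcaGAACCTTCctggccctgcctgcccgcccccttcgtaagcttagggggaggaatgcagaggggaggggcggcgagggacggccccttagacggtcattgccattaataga
The windows lie at chr9:64084077-64084326 (plus strand), chr8:50080264-50080513 (plus), chr12:10427118-10427367 (plus) and chr12:26432302-26432551 (minus), respectively. HSPE1 and HSPD1, which encode HSP10 and HSP60, stand head to head with annotated starts 290 bases apart on opposite strands, and the same run of elements lies in both of their windows. None of these matches was found before the prefoldin genes, CCT3 or HSPBP1. A match is a description of the letters and not evidence of binding.

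None of the 34 chaperone genes passed the test between the diets after adjustment over all genes. In the limma test on log2(rescaled TPM + 0.1), 0 of 12198 genes (0%) passed 0.05 after Benjamini-Hochberg adjustment, and 1051 had an unadjusted p under 0.05. The lowest adjusted value in the set was 0.54. The study's own test, run on counts, reported 46 differentially expressed genes, so the 0 describes only the test used here. The reason for this difference was not tested. In limma before adjustment, 4 chaperone genes passed 0.05, all lower in HFD-fed rats: the mitochondrial HSPE1, the TRiC subunit CCT3, the HSP70 exchange factor HSPBP1 and the small heat shock protein HSPB1. These are 11.8% of the set, against 4.84% of all genes tested that were lower with an unadjusted p under 0.05. All genes are not a like background, since they were not selected on the control mean. Among the 2034 genes tested with a control mean at or above that of the naming table, 13.2% were lower with such a p, so that the share in the chaperone set was no larger than among abundant genes in general. No chaperone gene was higher with such a p, against 3.78% of all genes and 0.983% of the abundant genes. The mean was lower in HFD-fed rats for 22 of the 34 genes (64.7%) and for 47.1% of all genes and 70.7% of the abundant genes, but with TPM as deposited for 12 of the 34 and 27.0% of all genes. The median log2 fold change of the set was -0.04, that of all genes 0.01 and that of the abundant genes -0.08.

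Part of this picture changed with the scaling. With TPM as deposited, the median over all genes moved to 0.12 and that over the chaperone genes to 0.07, against 0.01 and -0.04 after rescaling, and that over the abundant genes to 0.02. None of the 34 genes then had an unadjusted p under 0.05, against 1.26% of all genes that were lower and 3.85% that were higher. Without control rat 1, 8 chaperone genes (23.5%) were lower with an unadjusted p under 0.05, against 6.25% of all genes and 17.0% of the abundant genes, and none was higher, against 5.53% and 1.92%. Then 30 of the 34 had a lower mean, against 49.4% of all genes and 74.5% of the abundant genes, and the median was -0.09, against -0.06 for the abundant genes. Of these 8 genes, 3 (HSPE1, CCT3 and HSPBP1) were also among the 4 found with all rats. The others were CCT4, CCT5, CCT6A, STIP1 and DNAJA3. No gene had an adjusted p under 0.05 without control rat 1 either, and the smallest among the chaperone genes was 0.224.

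**Figure D1:**
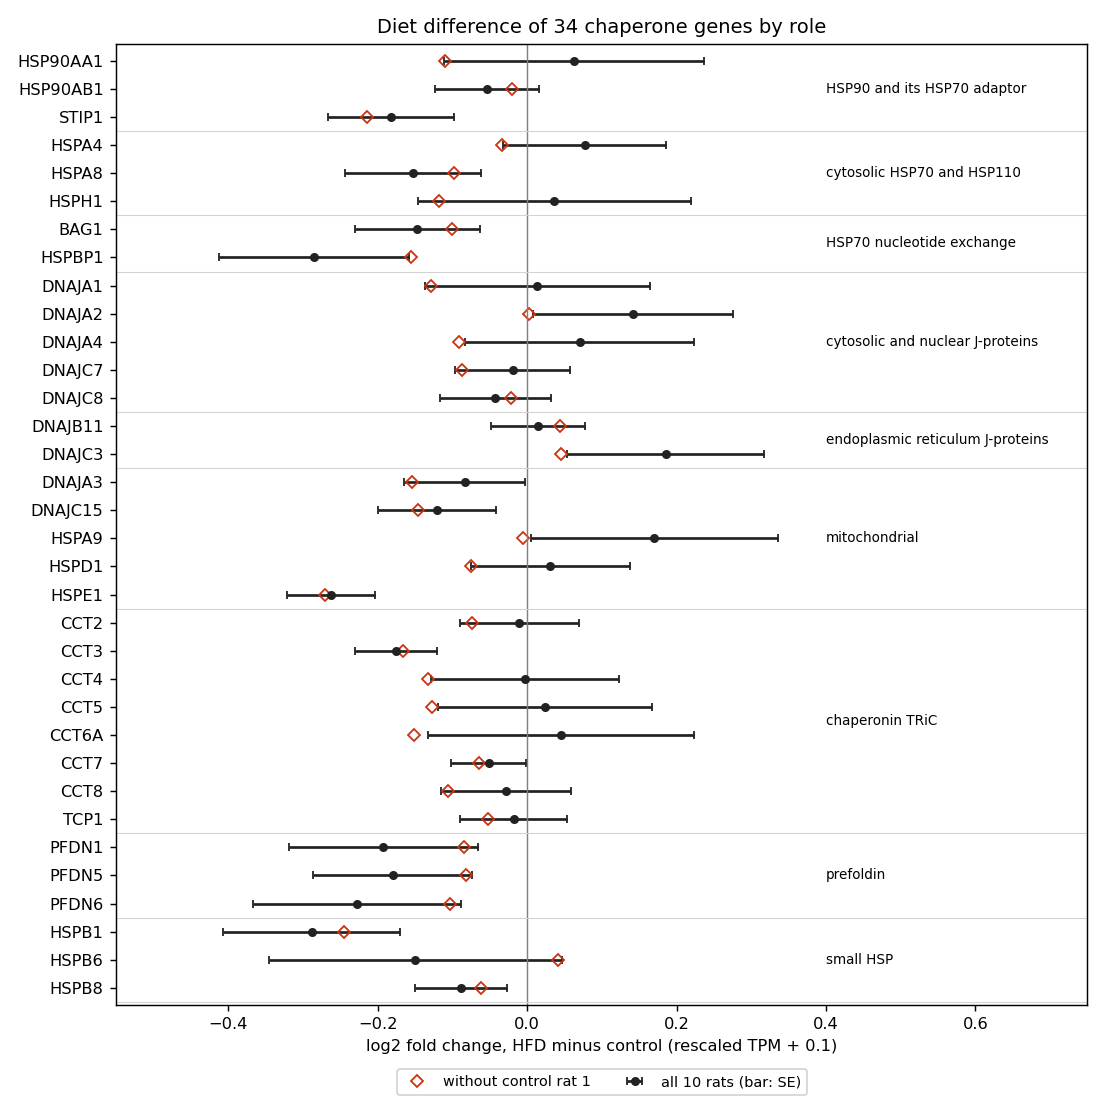
Log2 fold change (HFD minus control, on the scale of rescaled TPM + 0.1) of the 34 chaperone genes, grouped by role. Filled points with bars are the estimate and its standard error from all 10 rats, open diamonds the estimate without control rat 1, which lies below 0 for 30 of the 34 genes.

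HSPE1 (ENSRNOG00000051624) encodes HSP10, the lid of the mitochondrial chaperonin, and was the most abundant gene of the set. Its rescaled TPM were 631, 601, 704, 666 and 629 in control rats 1 to 5 and 534, 540, 557, 538 and 522 in HFD-fed rats 1 to 5. The diets did not overlap, with all HFD-fed rats lower and close together. The means were 538 ± 12.4 and 646 ± 39.7 (SD, n = 5 each), a difference of -16.7% and -0.26 on the log2 scale (SE 0.06; exact permutation test, two-sided, p = 0.00794, the smallest that 5 rats against 5 allow; limma adjusted p = 0.54). Control rat 1 was within the range of the other rats for this gene after rescaling, and leaving it out gave -0.27. With TPM as deposited the groups overlapped, with control rat 1 at 473 TPM, and the log2 fold change was -0.16.

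HSPD1 (ENSRNOG00000014525) encodes HSP60, the barrel that HSP10 closes. It had 84.2, 122, 122, 118 and 126 rescaled TPM in control rats and 110.0, 121, 121, 117 and 110.1 in HFD-fed rats. Control rat 1 was the lowest of all rats and the other values overlapped between the diets (log2 fold change 0.03, and -0.08 without that rat). The ratio of HSPE1 to HSPD1 does not depend on the scaling of a rat. It was 7.497, 4.93, 5.78, 5.65 and 5.00 in control rats and 4.85, 4.48, 4.59, 4.62 and 4.74 in HFD-fed rats, so that each HFD-fed rat was below each control rat. The mean log2 ratio differed by -0.29, with a 95% interval from -0.53 to -0.08 obtained by inverting the exact test (exact permutation test, two-sided, p = 0.00794, adjusted p = 0.0476 over 6 ratios). Leaving out control rat 1, which had the highest ratio, gave -0.19 (exact permutation p = 0.0159, adjusted p = 0.0952). This is the smallest p that the exact test allows without that rat, so its adjusted value could not fall below 0.05. The 6 gene pairs were chosen with the diet means of these genes known, which makes the p of this ratio descriptive of the 10 rats. Both transcripts, like HSPA8 and HSP90AB1, have processed copies in mammalian genomes, and how reads were shared with such copies is not known here.

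The values of the other mitochondrial chaperone genes overlapped between the diets. HSPA9 (ENSRNOG00000019525) encodes mortalin, the HSP70 of the matrix and of the import motor. It had 118, 226, 211, 222 and 208 rescaled TPM in control rats and 202, 225, 219, 197 and 238 in HFD-fed rats, a log2 fold change of 0.17 with all rats and of -0.01 without the low control rat 1. DNAJA3 (ENSRNOG00000003855), its J-protein partner, had 39.5, 50.4, 52.2, 49.6 and 49.9 in control rats and 43.2, 46.8, 44.5, 48.3 and 44.4 in HFD-fed rats. Apart from control rat 1, all control rats exceeded all HFD-fed rats, and the log2 fold change of -0.08 became 0.02 with TPM as deposited and -0.15 without that rat (limma, unadjusted p = 0.00773). The ratio of HSPA9 to DNAJA3 had means of 4.77 ± 0.470 under HFD and 4.03 ± 0.622 under control diet (SD, n = 5 each; two-sided exact permutation p = 0.0556, adjusted p = 0.167), with a log2 difference of 0.25, and of 0.15 without control rat 1. DNAJC15, a J-protein of the inner membrane, had a log2 fold change of -0.12. GRPEL1, the nucleotide exchange factor of mortalin and 1 of 7 listed mitochondrial folding and proteolysis genes that could be named, was 92.0 ± 6.40 against 101 ± 4.46 (SD, n = 5 each; limma, unadjusted p = 0.0543, and 0.0305 without control rat 1; exact permutation p = 0.0397 with all rats).

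**Figure D2:**
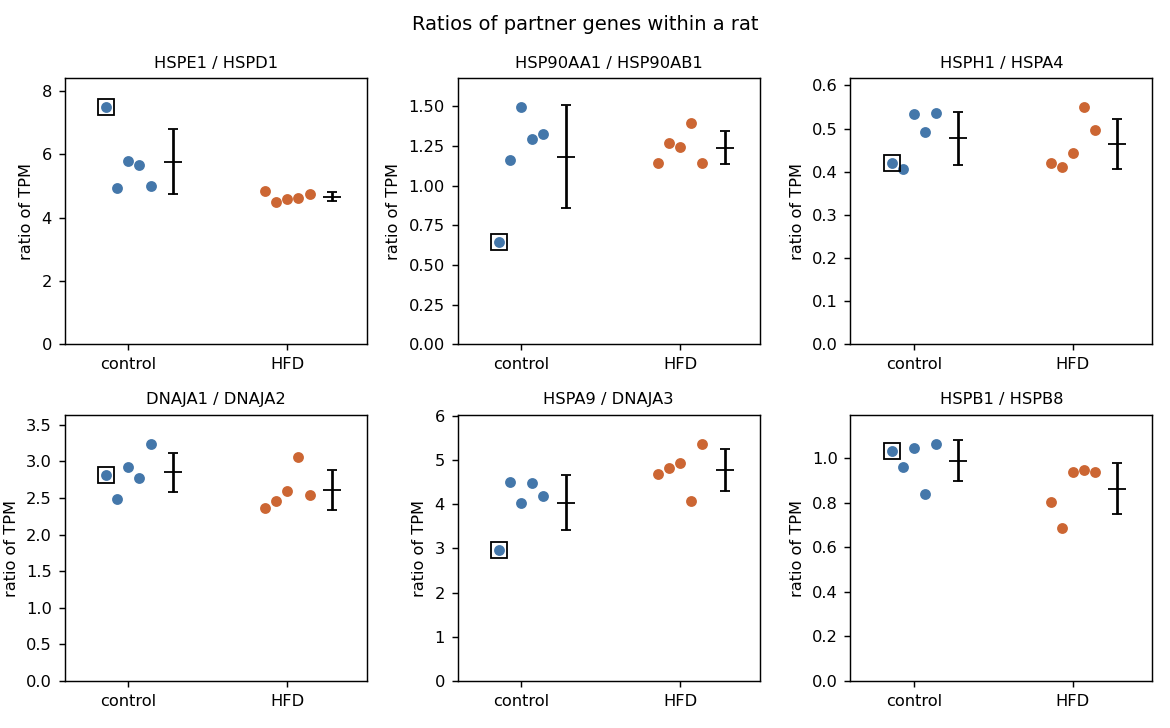
Ratio of TPM of 6 partner or paralogous gene pairs in each rat by diet (points), with the mean and SD of 5 rats beside them and control rat 1 boxed. The HSPE1 to HSPD1 ratio is 4.48 to 4.85 in HFD-fed rats and 4.93 to 7.497 in control rats, while the values of the other pairs overlap between the diets.

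The chaperonin TRiC is a double ring in which each of its subunits occupies a fixed place, and all 8 subunit genes that the rule names were in the set. Their mean rescaled TPM ran from 62.1 for CCT6A to 177 for CCT2 in control rats, and the levels of CCT2 and CCT5 (127) lay above those of the other subunits, at 62.1 to 85.3. CCT3 (ENSRNOG00000019090) had 70.6, 66.3, 68.5, 69.0 and 70.3 in control rats and 61.6, 63.7, 57.2, 64.1 and 58.8 in HFD-fed rats. The diets did not overlap, and control rat 1 lay next to the other control rats for this subunit. The means were 61.1 ± 3.04 against 68.9 ± 1.71 (SD, n = 5 each), giving a log2 fold change of -0.18 (SE 0.05; exact permutation p = 0.00794; limma adjusted p = 0.54). With TPM as deposited the groups overlapped and the log2 fold change was -0.07.

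CCT6A (ENSRNOG00000000923) shows the place of control rat 1 for most of the other subunits. It had 34.9 in that rat, 69.4, 69.0, 67.4 and 69.8 in the other control rats, and 60.6, 68.0, 61.7, 62.4 and 57.7 in HFD-fed rats. With all rats the log2 fold change was 0.05, and without control rat 1 it was -0.15 (limma, unadjusted p = 0.0141). CCT4 likewise had 0.00 with all rats and -0.13 without it (limma, unadjusted p = 0.0277). CCT5 had 0.02 and -0.13 (limma, unadjusted p = 0.0399), with 135 to 140 in the other control rats and 119 to 142 in HFD-fed rats. CCT2, CCT7, CCT8 and TCP1 had log2 fold changes from -0.05 to -0.01, which were above 0 with TPM as deposited, and from -0.11 to -0.05 without that rat. Thus 1 of the 8 subunits had an unadjusted p under 0.05 with all rats and 4 without control rat 1, all lower. Of all genes tested, 4.84% were lower with such a p with all rats and 6.25% without control rat 1. Among the abundant genes these shares were 13.2% and 17.0%. The median log2 fold change over the subunits was -0.01 with all rats and -0.12 without control rat 1.

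Prefoldin captures nascent chains for TRiC. PFDN5, the most abundant of its genes here, had 397 rescaled TPM in control rat 1, 276 to 289 in the other control rats and 237 to 294 in HFD-fed rats. PFDN1 had 141, 95.4 to 101 and 76.8 to 108, and PFDN6 190.3, 119 to 129 and 102 to 140. For these genes control rat 1 was the highest of all rats, opposite to its place for most TRiC subunits. The log2 fold changes were -0.18 to -0.23 with all rats and -0.08 to -0.10 without it. VBP1, a further prefoldin subunit listed among other cofactors (1 of 5 could be named), followed with 136, 83.0 to 100.1 and 65.4 to 90.6 (log2 fold change -0.29; limma, unadjusted p = 0.0611), and -0.17 without control rat 1 (limma, unadjusted p = 0.102).

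**Figure D3:**
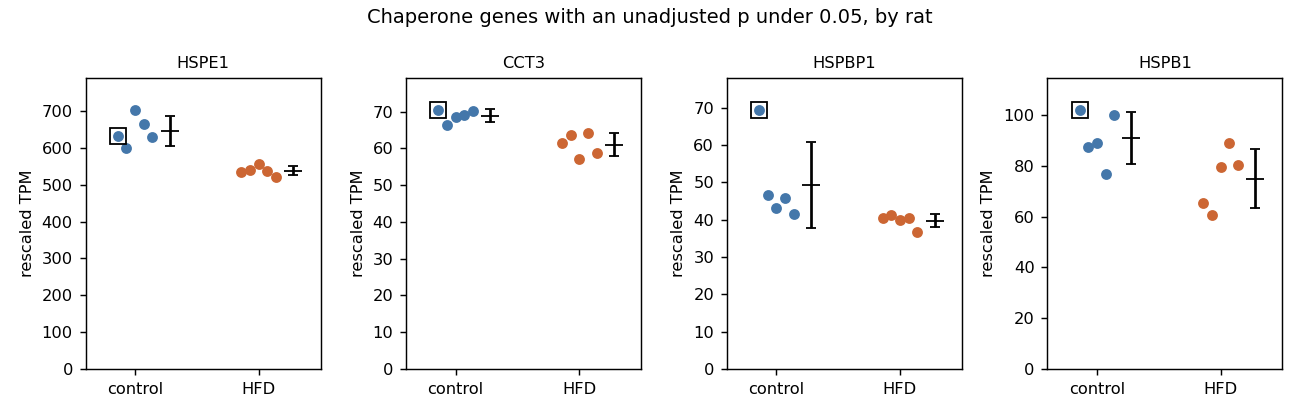
Rescaled TPM of HSPE1, CCT3, HSPBP1 and HSPB1 in each rat by diet (points), with the mean and SD of 5 rats beside them and control rat 1 boxed. HFD-fed rats lie below all control rats for HSPE1, CCT3 and HSPBP1, while the diets overlap for HSPB1.

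HSPA8 (ENSRNOG00000034066) encodes HSC70, the constitutive cytosolic HSP70, and was the next most abundant gene of the set after HSPE1. It had 601, 449, 476, 492 and 572 rescaled TPM in control rats and 454, 447, 445, 522 and 451 in HFD-fed rats. The groups overlapped, and HFD-fed rat 4 stood above the other HFD-fed rats (log2 fold change -0.15, and -0.10 without control rat 1; exact permutation p = 0.151 with all rats). HSPA4 (ENSRNOG00000016596) and HSPH1 (ENSRNOG00000000902) encode HSP110 proteins, which open HSP70 for nucleotide exchange. HSPA4 had 70.7, 101, 103.9, 102 and 109 in control rats and 95.1, 99.5, 102, 106 and 105 in HFD-fed rats, where control rat 1 alone lay apart (log2 fold change 0.08, and -0.03 without it). HSPH1, a strongly heat-inducible gene, had 29.7, 41.1, 55.4, 50.05 and 58.4 in control rats and 40.03, 40.9, 45.2, 58.3 and 52.0 in HFD-fed rats. Its SD on the log2 scale among HFD-fed rats, 0.232, was the largest of the set, but close to 0.230 for HSPB1 and 0.227 for HSPB6. Its log2 fold change was 0.04, and -0.12 without control rat 1, and the log2 ratio of HSPH1 to HSPA4 differed by -0.04 with a 95% interval from -0.32 to 0.23.

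Exchange factors outside the HSP110 family were lower in mean. HSPBP1 (ENSRNOG00000017795) had 69.5, 46.7, 43.1, 45.9 and 41.5 rescaled TPM in control rats and 40.5, 41.2, 39.97, 40.4 and 36.7 in HFD-fed rats. All HFD-fed rats were below all control rats, by a small distance from the lowest control rats and a large one from control rat 1. The log2 fold change was -0.29 (SE 0.13; exact permutation p = 0.00794; limma adjusted p = 0.571), and -0.16 without control rat 1. With TPM as deposited it was -0.18 and the groups overlapped. BAG1, which also links HSP70 to the proteasome, had 45.8 ± 4.03 against 50.7 ± 4.66 (SD, n = 5 each). HSPE1, CCT3 and HSPBP1 were the 3 genes of the set (8.82%) whose groups did not overlap, against 2.01% of all genes tested and 6.78% of the abundant genes in this direction, and HSPBP1 had entered the set by its control mean. In the other direction it was 0 genes of the set and 1.39% of all genes.

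HSP90AA1 (ENSRNOG00000059714) encodes the inducible and HSP90AB1 (ENSRNOG00000019834) the constitutive cytosolic HSP90. HSP90AA1 had 259, 406, 507, 449 and 529 rescaled TPM in control rats and 377, 461, 454, 477 and 419 in HFD-fed rats. HSP90AB1 had 402, 349, 339, 347 and 400.3 in control rats and 331, 363, 364, 343 and 366 in HFD-fed rats. After rescaling, control rat 1 was thus lowest for the inducible and highest for the constitutive gene. With TPM as deposited it was lowest for both, with 301 for HSP90AB1 against 344 to 413 in the other rats. The ratio of the 2 genes, which the scaling does not alter, was 0.643 in that rat. It was 1.16 to 1.496 in the other control rats and 1.14 to 1.39 in HFD-fed rats. The log2 difference of the ratio between diets was 0.12 with a 95% interval from -0.23 to 0.61, and -0.09 without control rat 1. STIP1, the adaptor that passes clients from HSP70 to HSP90, had 78.5 ± 7.24 against 89.1 ± 8.14 (SD, n = 5 each). Its log2 fold change was -0.18 (limma, unadjusted p = 0.0536), and -0.21 without control rat 1 (limma, unadjusted p = 0.021).

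Among the J-proteins of the cytosol, which deliver clients to HSP70, DNAJA1 (ENSRNOG00000007029) had 144, 211, 237, 227 and 272 rescaled TPM in control rats and 196, 222, 225, 245 and 195 in HFD-fed rats. DNAJA2 (ENSRNOG00000016251) had 51.1, 84.9, 81.0, 82.0 and 83.7 in control rats and 82.6, 90.1, 86.5, 79.9 and 76.5 in HFD-fed rats. Both overlapped between the diets with control rat 1 lowest, the log2 fold changes were 0.01 and 0.14 with all rats and -0.13 and 0.00 without it, and the log2 ratio of DNAJA1 to DNAJA2 differed by -0.13 with a 95% interval from -0.32 to 0.08. DNAJA4, DNAJC7 and DNAJC8 had log2 fold changes of 0.07, -0.02 and -0.04, and of -0.09, -0.09 and -0.02 without control rat 1. The endoplasmic reticulum J-proteins DNAJB11 and DNAJC3 had 0.01 and 0.19, and 0.04 and 0.05 without control rat 1. The endoplasmic reticulum genes that the rule leaves out had 421 ± 31.0 against 415 ± 12.6 for HSPA5, the HSP70 of that compartment, and 282 ± 35.3 against 277 ± 26.9 for HSP90B1, its HSP90 (SD, n = 5 each), and overlapped between the diets. No p under 0.05 before adjustment was found among 8 named endoplasmic reticulum chaperones, the last pair included, or among 8 named co-chaperones of HSP90 and HSP70 in limma with all rats, and their median log2 fold changes were -0.01 and -0.10. Of the co-chaperones, SUGT1 and PTGES3 had exact permutation p = 0.0238 and 0.0397, both lower in mean, and NUDC had a limma unadjusted p = 0.0405 without control rat 1.

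HSPB1 (ENSRNOG00000023546) encodes HSP27, a small heat shock protein that holds unfolding proteins in solution. It had 102, 87.5, 88.8, 76.9 and 100.04 rescaled TPM in control rats and 65.3, 60.5, 79.5, 89.0 and 80.2 in HFD-fed rats. The groups overlapped, with HFD-fed rats 1 and 2 below every control rat. The means were 74.9 ± 11.7 and 91.1 ± 10.3 (SD, n = 5 each), giving a log2 fold change of -0.29 (SE 0.12; exact permutation p = 0.0794; limma adjusted p = 0.568), and -0.25 without control rat 1. HSPB8 (ENSRNOG00000022392), which works with BAG3 in selective autophagy, had 99.2, 91.2, 84.9, 91.5 and 93.9 in control rats and 81.3, 87.8, 84.6, 93.9 and 85.5 in HFD-fed rats. The ratio of HSPB1 to HSPB8 overlapped between the diets (log2 difference -0.20; exact permutation p = 0.111, adjusted p = 0.222). HSPB6 (ENSRNOG00000020922), a small heat shock protein prominent in smooth muscle, had 87.9 in control rat 1, 50.7, 41.7, 44.6 and 44.6 in the other control rats and 48.3, 51.9, 55.5, 41.7 and 37.9 in HFD-fed rats, and its log2 fold change of -0.15 became 0.04 without that rat.

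For many genes of the set the widest spread thus lay between control rat 1 and all others rather than between the diets. HSPE1 and CCT3 were exceptions, with control rat 1 close to the other control rats and no overlap between the diets. Control rat 1 was below all other 9 rats for 16 chaperone genes (47.1%) and above them for 13 (38.2%), leaving 5 within their range. Some of these margins were small, as for CCT3 (70.6 against 70.3 in the next rat) and HSP90AB1 (402 against 400.3). Among the 2069 genes tested with a mean at least that of the lowest chaperone gene, it was below for 26.8% and above for 47.8%. Below were 5 of 8 TRiC genes, 4 of 5 cytosolic and nuclear J-protein genes and 3 of 5 mitochondrial genes. Above were all 3 prefoldin genes, all 3 small heat shock protein genes and both separate exchange factors. These places depended in part on the rescaling. With TPM as deposited, control rat 1 stayed above the other rats for the prefoldin genes, HSPB6 and HSPBP1. It was then within their range for HSPB1. For HSPB8 (74.3 against 79.96 or more), BAG1 (43.17 against 43.33 or more) and HSP90AB1, among others, it was the lowest rat. Without this rat the median coefficient of variation of the chaperone genes was 4.59% in the other 4 control rats and 6.24% in HFD-fed rats. Only the control group lost a rat that stood apart, so these medians do not compare the spread between the diets. The highest values were those of HSPH1, 14.8% and 16.5%. These values were not compared with those of other genes.

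**Figure D4:**
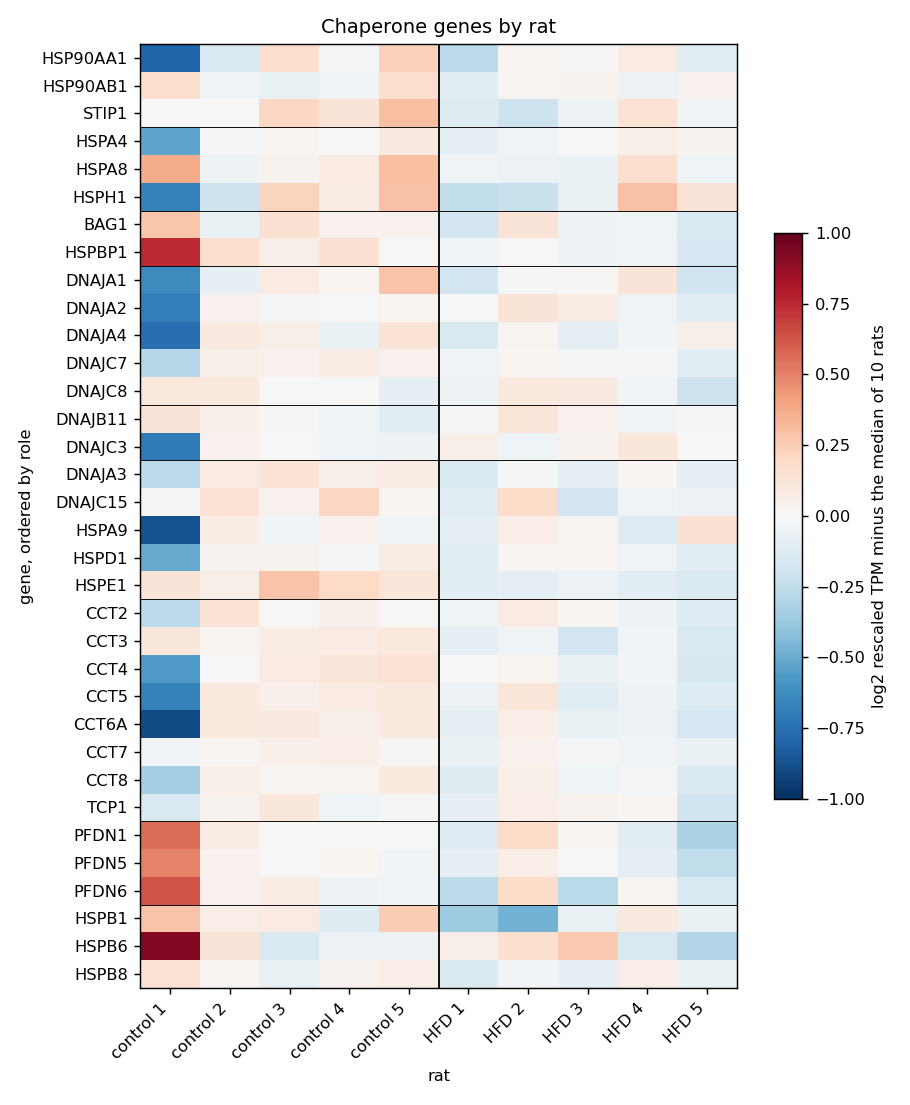
Log2 rescaled TPM of the 34 chaperone genes in each rat minus the median of the 10 rats (colour, from -1 to 1), with genes ordered by role. Control rat 1 is blue, below the median, for most J-protein and TRiC genes and red, above it, for prefoldin genes, HSPBP1 and HSPB6. The rows of HSPE1, CCT3 and HSPBP1 change sign between the diets, as any row without overlap must when the median is subtracted.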

How the data were processed

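The tissue was sequenced as paired-end reads. The authors used Rnor_6.0 with STAR (version 2.7.2a in the submitters' processing notes, another in the study's methods) and RSEM 1.3.3, and deposited a TPM and an FPKM per Ensembl gene. The deposited FPKM were a constant multiple of TPM within a rat and served only for the mean effective transcript length. Counts were not used here, so the count test of the study was replaced and depth is unknown.

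TPM were divided by median ratios over 12037 genes, with factors set to a geometric mean of 1. The filter kept a mean rescaled TPM of 1 or more, which left 12198 genes for limma 3.58.1 (R 4.3.3, moderated test with a mean-variance trend, diet as the only term) on log2(TPM + 0.1). This scale understates changes of low genes. Adjustment was by Benjamini-Hochberg, and the step was first tested on simulated data, in which it did not recover changes as small as those seen in this set. The background of genes with the control mean of the naming table was added after seeing the data. Exact permutation tests were two-sided over 252 assignments of rats, in Python 3.11.15 with scipy 1.17.1. Values of rats measure the spread between animals.

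The members, gene lists and pairs were chosen with earlier results of these data known. Values per rat are given for genes with an unadjusted p under 0.05, the 2 most abundant, the 2 most variable within each diet, and the genes of each pair, and ranges of further TRiC and prefoldin genes were added after their values were seen. Alternatives were other scalings, pseudocounts, filters, variance models, a replicate block, a length covariate and leaving out each rat. Protein sequences, heat shock factors and chaperone genes without a name in the tables were not analysed here.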

Additional observations from a re-analysis of the deposited data

Results flagged for a closer look

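Within each diet, the most extreme of the 5 rats is listed here where the distance to its neighbour made up over 0.71 of the spread from lowest to highest, by Dixon's test. This held for 21 of the 84 sets of values examined, of which about 4.2 would be met by chance. Control rat 1 accounted for 19. It was low in scaling factor, 0.749 against 1.01 to 1.05 in the other control rats, and in mean effective transcript length, 789 against 905 to 918.

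In rescaled TPM, control rat 1 was low among control rats for 12 genes: CCT4 (55.2 against 81.6 to 90.2), CCT5 (81.9 against 135 to 140), CCT6A (34.9 against 67.4 to 69.8), CCT8 (54.8 against 69.9 to 73.9), DNAJA2 (51.1 against 81.0 to 84.9), DNAJA3 (39.5 against 49.6 to 52.2), DNAJA4 (52.8 against 85.2 to 98.2), DNAJC3 (36.0 against 56.8 to 60.8), DNAJC7 (44.8 against 56.2 to 57.5), HSPA4 (70.7 against 101 to 109), HSPA9 (118 against 208 to 226) and HSPD1 (84.2 against 118 to 126). It was high for 5 genes: HSPB6 (87.9 against 41.7 to 50.7), HSPBP1 (69.5 against 41.5 to 46.7), PFDN1 (141 against 95.4 to 101), PFDN5 (397 against 276 to 289) and PFDN6 (190.3 against 119 to 129).

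Among HFD-fed rats, rat 4 was high for HSPA8 (522 against 445 to 454) and rat 5 low for HSPBP1 (36.7 against 39.97 to 41.2).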

How the results depend on the processing

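None of the 34 chaperone genes had an adjusted p under 0.05 in any of the 21 alternatives, and 13 kept the sign of the log2 fold change in all of them. Among all genes, 0 passed in limma, but 1 did without a filter on low values, 3 with array weights and 2 with the transcript length covariate (mean effective length of each rat, chosen after seeing the data). Over all genes, in both directions, unadjusted p under 0.05 numbered 1051 in limma with all rats. They numbered 624 with TPM as deposited, 622 with a TPM filter of 10 (fewer genes tested) and 1877 with array weights. When 1 rat was left out, they numbered 792 to 1445 (1445 without control rat 1). Of the chaperone genes, 4 were lower with such a p, but 0 with TPM as deposited, 10 with array weights and 2 to 8 when 1 rat was left out (2 without HFD rat 1, 8 without control rat 1). HSPE1 and CCT3 were among them in every alternative except TPM as deposited. The median of the set was 0.066 with TPM as deposited. The causes were not tested. Log2 fold changes turned positive with TPM as deposited for CCT2 (0.092), CCT4 (0.099), CCT7 (0.051), CCT8 (0.073), DNAJA3 (0.018), DNAJC7 (0.083), DNAJC8 (0.059), HSP90AB1 (0.048), HSPB8 (0.013) and TCP1 (0.084), and with upper-quartile rescaling for CCT2 (0.016), CCT4 (0.024), DNAJC7 (0.0072) and TCP1 (0.0083). Array weights and the length covariate, in that order, gave -0.13 and -0.094 for CCT5, -0.14 and -0.11 for CCT6A, -0.12 and -0.094 for DNAJA1, -0.071 and -0.075 for DNAJA4, -0.11 and -0.073 for HSP90AA1, -0.026 and -0.024 for HSPA4, 0.061 and 0.081 for HSPB6, -0.061 and -0.044 for HSPD1, and -0.13 and -0.14 for HSPH1, each of the other sign than with all rats in limma. Array weights also gave -0.0077 for HSPA9 and the covariate 0.0091 for DNAJC8. Leaving out 1 rat changed a sign for 17 genes, with ranges of -0.073 to 0.029 for CCT2, -0.13 to 0.044 for CCT4, -0.13 to 0.066 for CCT5, -0.15 to 0.098 for CCT6A, -0.11 to 0.0024 for CCT8, -0.13 to 0.10 for DNAJA1, -0.092 to 0.13 for DNAJA4, -0.015 to 0.044 for DNAJB11, -0.088 to 0.0023 for DNAJC7, -0.073 to 0.0031 for DNAJC8, -0.11 to 0.15 for HSP90AA1, -0.033 to 0.12 for HSPA4, -0.0062 to 0.23 for HSPA9, -0.23 to 0.041 for HSPB6, -0.076 to 0.069 for HSPD1, -0.12 to 0.12 for HSPH1 and -0.052 to 0.022 for TCP1.

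With the replicate number as a block, 4 chaperone genes had an unadjusted p under 0.05 (CCT3, HSPBP1, HSPE1 and STIP1), and the HSPE1 to HSPD1 ratio, -0.29, had an exact sign-flip p of 0.0625, the smallest that 5 pairs allow. Same-numbered rats deviated from their diet means with correlations of -0.038 to 0.12, so the numbers were not taken as pairs. When 1 rat was left out, the ratio of HSPE1 to HSPD1 was -0.35 to -0.19, of HSP90AA1 to HSP90AB1 -0.089 to 0.22, of HSPH1 to HSPA4 -0.10 to 0.0029, of DNAJA1 to DNAJA2 -0.19 to -0.080, of HSPA9 to DNAJA3 0.15 to 0.31 and of HSPB1 to HSPB8 -0.26 to -0.12. An exact p below 0.05 before adjustment was then met by DNAJA1 to DNAJA2 without HFD rat 4, HSPA9 to DNAJA3 without HFD rat 4 or either control rat 2 or 4, and HSPB1 to HSPB8 without control rat 4.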
